A study of Homo sapiens with 12 samples.

Results

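The expression of annexin genes was followed in A549, an established epithelial line from a human lung adenocarcinoma, under TGFβ (TGFb in the labels), a cytokine added here to induce epithelial-to-mesenchymal transition (EMT). The members were the 9 rows of the count table whose symbol is ANXA1, ANXA2, ANXA3, ANXA4, ANXA5, ANXA6, ANXA7, ANXA10 or ANXA11, of 29035 genes in all and 15871 protein-coding genes. They were named by symbol, with earlier results of these data known. ANXA8, ANXA8L1, ANXA9 and ANXA13 were not among them and are described with the other annexin genes. The 6 groups differ in their time with 4 ng/mL TGFβ: none (0 h), 0.5 h, 12 h, 24 h, 48 h or 96 h, with the medium renewed every other day. There was no untreated culture at the later times, so time in culture and time with TGFβ cannot be told apart. Each group had 2 libraries made by CEL-Seq2, a plate method, from 384 wells that each received 1 sorted living cell. In CEL-Seq2 the 3′ end of each mRNA is copied with a random tag (unique molecular identifier, UMI), and 1 UMI stands for 1 captured molecule. Nothing in the labels tells whether both libraries of a time came from separate cultures, so the p-values measure the spread between these samples only, which may be technical.

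Annexins bind phospholipid membranes in the presence of calcium through a core of repeated annexin domains, and take part in membrane trafficking, the linking of membranes to actin, and the resealing of torn plasma membrane. Several also act outside the cell. ANXA1 mediates the anti-inflammatory action of glucocorticoids, and ANXA2 with its light chain S100A10 assembles plasminogen and its activator on the surface of epithelial and tumor cells. ANXA6 differs from the other members in carrying a duplicated core.

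In the library sums, 4 of the 8 annexins tested changed over the time course, where 28.2% of all genes tested did. ANXA1 and ANXA4 fell between 0.5 h and 12 h, ANXA3 fell between 24 h and 48 h, and ANXA6 rose between 24 h and 48 h. The steps of ANXA1, ANXA4 and ANXA6 depended on single libraries, and with stricter limits on cells only that of ANXA1 passed. ANXA2, which gave the most UMIs of the family, and ANXA5, ANXA7 and ANXA11 did not pass the test at any time. ANXA10 was close to undetected, with 1 to 5 UMIs per library.

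The genes lie on 6 chromosomes and, by GENCODE 44 on GRCh38, the canonical transcript has 12 to 16 exons except in ANXA6, which has 26. ANXA1 is at chr9:73151865-73170393 on the plus strand and ANXA4 at chr2:69644425-69827112 on the plus strand. ANXA3 is at chr4:78551747-78610451 on the plus strand and ANXA6 at chr5:151100706-151157815 on the minus strand. ANXA2 is at chr15:60347134-60402883, ANXA5 at chr4:121667946-121696995, ANXA7 at chr10:73375101-73414076 and ANXA11 at chr10:80150889-80205572, all on the minus strand, and ANXA10 is at chr4:168092537-168187736 on the plus strand. The 250 bases before the transcription start of the 4 genes that changed are given here because their timing and direction differ. All 9 members had an entry in RefSeq's promoter table (GRCh38.p14), and the capitals mark matches to 4 motifs searched on both strands: AP-1 (TGANTCA), the E-box CACCTG, the SMAD core CAGAC and the TATA motif TATAAA.
ANXA1, fell by 12 h, chr9:73151615-73151864 (plus strand): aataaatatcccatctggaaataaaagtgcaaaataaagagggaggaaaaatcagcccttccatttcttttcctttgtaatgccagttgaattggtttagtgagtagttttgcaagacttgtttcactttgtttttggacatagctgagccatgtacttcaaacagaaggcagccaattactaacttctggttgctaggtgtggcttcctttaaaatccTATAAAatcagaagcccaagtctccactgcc
ANXA4, fell by 12 h, chr2:69741884-69742133 (plus strand): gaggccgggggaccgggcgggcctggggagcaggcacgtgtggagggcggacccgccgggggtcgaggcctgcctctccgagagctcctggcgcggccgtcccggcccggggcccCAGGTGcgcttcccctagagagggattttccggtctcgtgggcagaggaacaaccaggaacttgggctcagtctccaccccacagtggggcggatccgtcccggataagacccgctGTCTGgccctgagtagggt
ANXA3, fell by 48 h, chr4:78551520-78551769 (plus strand): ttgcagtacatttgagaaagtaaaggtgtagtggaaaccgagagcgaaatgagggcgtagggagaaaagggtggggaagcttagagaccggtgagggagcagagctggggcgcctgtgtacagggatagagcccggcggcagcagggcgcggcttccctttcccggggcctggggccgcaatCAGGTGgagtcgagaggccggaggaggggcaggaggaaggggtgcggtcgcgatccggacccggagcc
ANXA6, rose by 48 h, chr5:151157780-151158029 (minus strand): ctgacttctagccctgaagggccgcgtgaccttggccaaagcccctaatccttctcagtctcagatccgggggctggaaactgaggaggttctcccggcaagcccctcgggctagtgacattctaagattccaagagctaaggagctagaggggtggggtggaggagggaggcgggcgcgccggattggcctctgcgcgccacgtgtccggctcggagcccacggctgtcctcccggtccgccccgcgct

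The window of ANXA1 had a TATA motif 31 bases before the start and a GC content of 38.4%, against 64.0% in ANXA3, 71.6% in ANXA4 and 65.6% in ANXA6. The windows of ANXA3 and ANXA4 each had the E-box in the orientation CAGGTG, 68 and 135 bases before the start. The SMAD core was found once, as GTCTG, 19 bases before the start of ANXA4, and the window of ANXA6 matched none of the 4 motifs. Among the members that did not pass the test, ANXA2 had an AP-1 match 127 bases and a TATA motif 31 bases before the start, and the E-box was also in the windows of ANXA7 and ANXA11. Of 35116 windows of this length in the table, 6.57% held the AP-1 motif, 17.5% the E-box, 38.0% the SMAD core and 10.7% the TATA motif. A match describes letters in these windows and is not evidence of binding.

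With limits of 100 to 40000 UMIs, 2000 to 7000 detected genes and 35% mitochondrial UMIs, 1871 of 4608 wells were kept, 54 to 217 per library and fewest at 96 h. The protein-coding sums ranged from 1264044 to 4500036 UMIs per library, and the median depth of a kept cell from 14137 to 28045 UMIs. Replicate 2 at 48 h and at 24 h had the lowest medians (14137 and 15789 UMIs), so annexin calls that rest on them are also given without both. Replicate 1 of every time carried one set of 384 well barcodes and replicate 2 the other, so libraries of one replicate number share all 384 barcodes by design and 22 to 113 barcodes of kept cells. As a check of the labels, CDH1 (E-cadherin) fell by 5.57 on the log2 scale from 0 h to 96 h. It had 256 UMIs at 0 h and 2 at 96 h, so the size of this fall is uncertain. CDH2 (N-cadherin) rose by 3.88, VIM by 1.67 and FN1 by 0.53, the last with an adjusted p of 0.0450 in edgeR. Summed epithelial markers (5 of 5 in the table) lay between 2106 and 3326 counts per 1000000 UMIs (CPM) in the libraries up to 24 h, at 1060 and 1322 at 48 h and at 1043 and 1106 at 96 h. At both 48 h and 96 h against 0 h, CDH1, KRT8, KRT18 and KRT19 fell and EPCAM did not pass. The label lung is that of the tumor of origin, since the 2 alveolar markers in the table, SFTPB and SFTPC, gave 3 UMIs in all libraries together. Endothelial markers (3 of 4 in the table) gave 4 UMIs, with at most 0.67 CPM in a library. Immune markers (3 of 5) gave 124 UMIs, all from CD14, with PTPRC and MS4A1 at 0. CD14 fell from 58 UMIs at 0 h to 1 at 96 h (log2 change -4.36 ± 0.84, edgeR adjusted p = 0.000399), and the summed list lay between 7.12 and 9.27 CPM at 0 h and at 0 and 0.78 at 96 h. Fibroblast markers (4 of 4) gave 48 UMIs, between 0.27 and 0.87 CPM at 0 h and between 2.66 and 4.67 at 96 h, and of these LUM rose (4.01 ± 1.26, adjusted p = 0.0231) on 1 and 8 UMIs. The part of these markers in the annexin changes was not tested.

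Levels are CPM over protein-coding UMIs after TMM scaling, and since a UMI stands for a molecule whatever its length, levels are not divided by gene length. At 0 h the mean level of the members fell from ANXA2 (5646 CPM) through ANXA1 (1514), ANXA4 (706), ANXA5 (497), ANXA11 (243), ANXA7 (128), ANXA3 (72.3) and ANXA6 (23.9) to ANXA10 (0.56), and no 2 neighbors in that order overlapped between their libraries. At 24 h ANXA5 stood above ANXA4, with no overlap. At 48 h and 96 h ANXA6 stood above ANXA3. The neighbors that overlapped were ANXA4 and ANXA5 at 12 h and again at 96 h, and ANXA11 and ANXA7 at 48 h. Together the 9 genes gave 0.873% ± 0.0319 (SD, n = 2) of the protein-coding UMIs at 0 h and 0.697% ± 0.0112 at 96 h. ANXA2 alone made up 63.8% ± 2.39 of the annexin UMIs at 0 h, 70.0% ± 1.40 at 12 h and 68.7% ± 0.954 at 96 h.

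**Figure D1:**
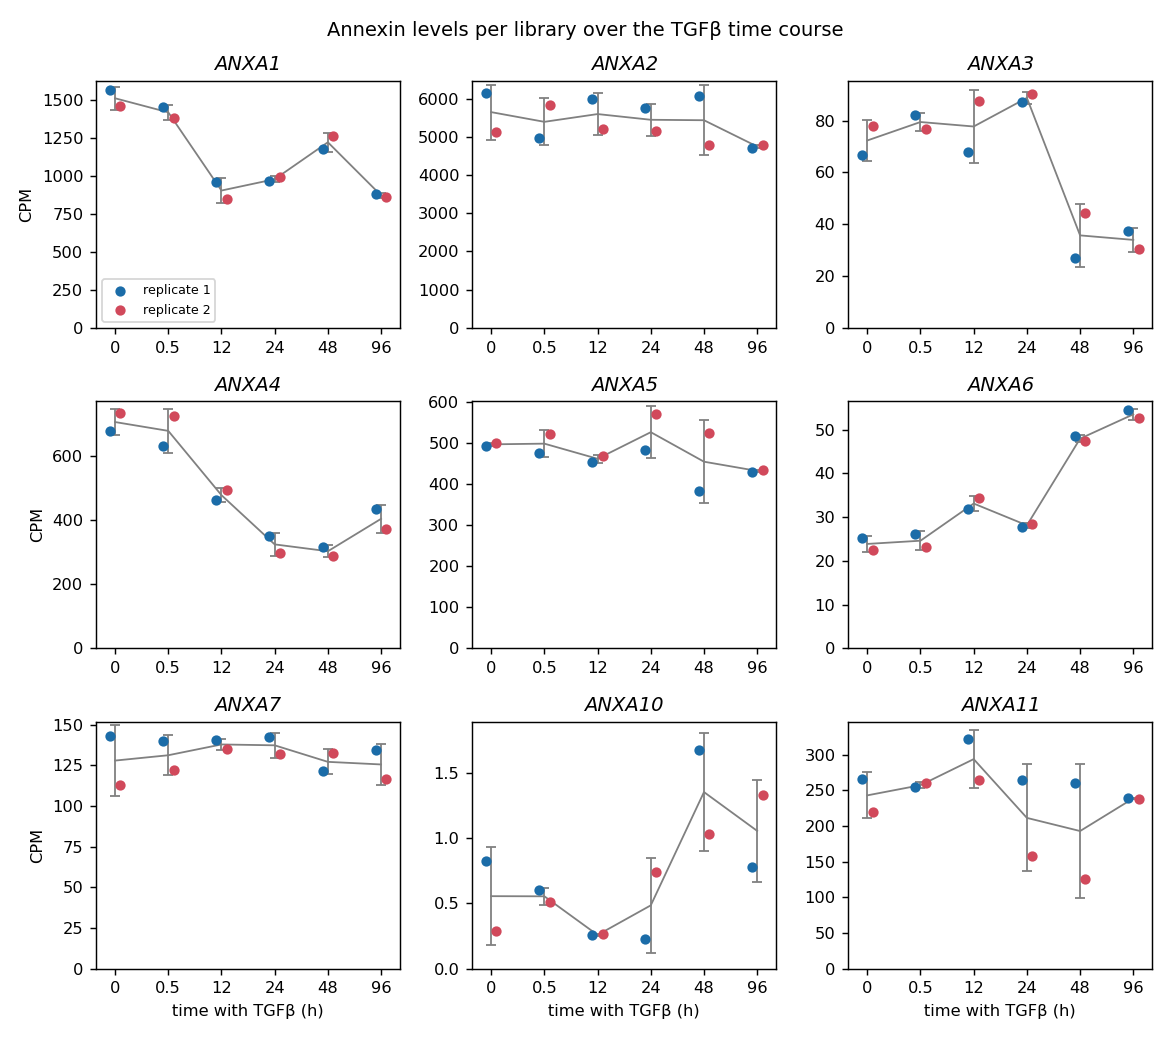
Level of each annexin in CPM (vertical axis, from 0) at each time with TGFβ in hours (horizontal axis, evenly spaced) in 12 libraries. Points are libraries (blue, replicate 1; red, replicate 2), the line joins the means and bars are the SD (n = 2). ANXA1 and ANXA4 step down at 12 h, ANXA3 at 48 h, and ANXA6 steps up at 48 h, while replicate 2 of ANXA11 is low at 24 h and 48 h (159 and 126 CPM).

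Any difference over the 6 times was tested with edgeR's quasi-likelihood F test in one model of all 12 libraries, with Benjamini-Hochberg adjustment over 10465 genes and a threshold of 0.05. Of the 9 members, 8 were abundant enough to test and 4 passed, against 28.2% of all genes tested. ANXA10 had too few UMIs to be tested. The adjusted p-values were 3.53e-07 for ANXA4, 1.46e-05 for ANXA3, 5.22e-05 for ANXA6 and 0.000119 for ANXA1. For the others they were 0.632 for ANXA11, 0.636 for ANXA5, 0.791 for ANXA2 and 0.944 for ANXA7. With the cells limited further to 3000 genes or more and 20% mitochondrial UMIs or less, 6 to 58 per library, ANXA6 no longer passed (adjusted p = 0.117).

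The comparisons of single times answer when each annexin changed. All comparisons with 0 h share the same pair of 0 h libraries. Counts of members past the threshold were 0 of 8 at 0.5 h (0.44% of all genes tested passed there), 2 of 8 at 12 h (14.3%), 2 of 8 at 24 h (13.2%), 3 of 8 at 48 h (18.5%) and 4 of 8 at 96 h (23.7%). Between neighboring times, 2 members passed at 12 h against 0.5 h (12% of all genes), 0 at 24 h against 12 h (0%), 2 at 48 h against 24 h (5.24%) and 0 at 96 h against 48 h (1.21%). At 0.5 h against 0 h no member had an unadjusted p under 0.05 in edgeR and 0 passed in DESeq2. At 24 h against 12 h the unadjusted p of 1 member, ANXA4, was under 0.05 in edgeR, and 0 passed in DESeq2. At 96 h against 48 h it was under 0.05 for 2 members, ANXA1 and ANXA4, and ANXA1 alone passed in DESeq2 (log2 change -0.48 ± 0.14, adjusted p = 0.0396). The median change of the 8 tested members from 0 h to 96 h was -0.23 on the log2 scale, and that of all genes tested was 0.02.

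**Figure D2:**
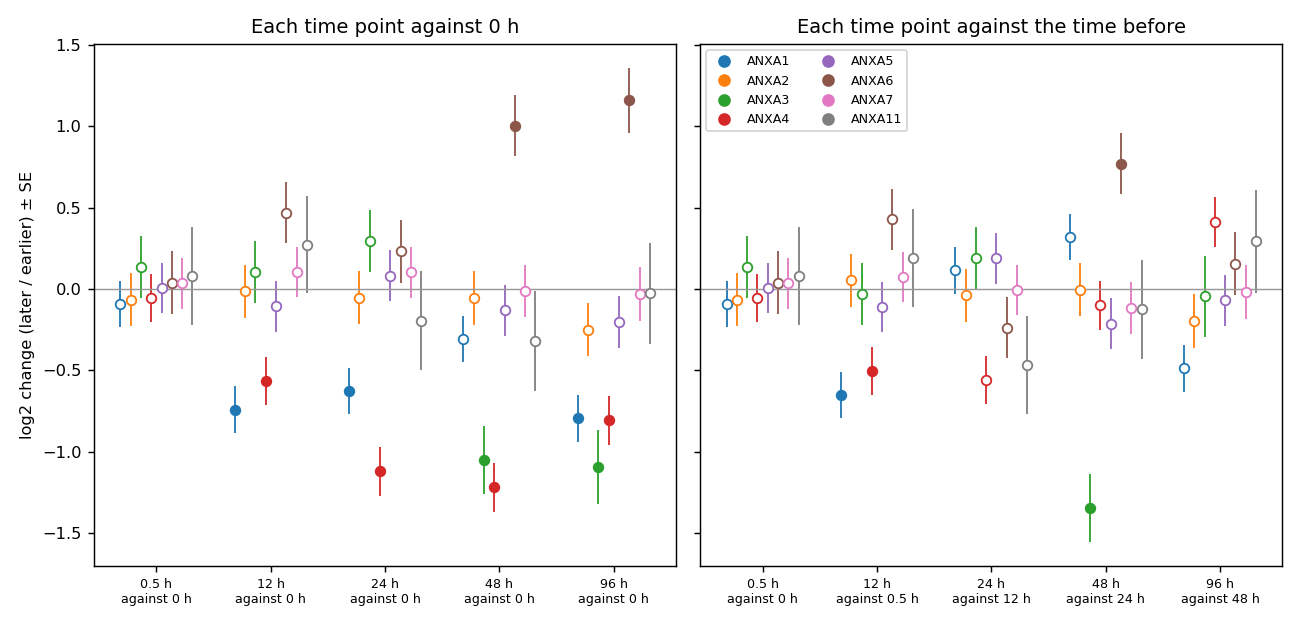
Log2 change in level of the 8 tested annexins (vertical axis, later over earlier time, bars SE from edgeR) for each time against 0 h (left) and against the time before (right). Filled points passed an adjusted p of 0.05 over all genes and open points did not. ANXA1 and ANXA4 lie below 0 from 12 h on the left, and the only filled points on the right at 48 h against 24 h are ANXA3 (-1.35) and ANXA6 (0.77).

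ANXA1 encodes annexin A1, the ligand of formyl peptide receptors and a substrate of receptor tyrosine kinases. Its level in replicates 1 and 2 was 1567 and 1460 CPM before TGFβ, 1455 and 1387 after 0.5 h, 963 and 848 after 12 h, 965 and 995 after 24 h, 1180 and 1268 after 48 h, and 884 and 863 after 96 h. The 4 libraries at 12 h and 24 h and both at 96 h were thus below every library of 0 h and 0.5 h, and those at 48 h lay between. Relative to 0 h, ANXA1 fell by 40.2% at 12 h (log2 change -0.74 ± 0.14 SE, edgeR adjusted p = 0.000594). It fell by 35.3% at 24 h (-0.63 ± 0.14, adjusted p = 0.00305, and -0.62 ± 0.18 with adjusted p = 0.0237 without both shallow libraries), and at 96 h it fell by 42.3% (-0.79 ± 0.14, adjusted p = 0.000191). At 48 h the change was -0.31 ± 0.14 and did not pass (adjusted p = 0.144). The step from 0.5 h to 12 h passed (-0.65 ± 0.14, adjusted p = 0.00251) but not without replicate 2 at 12 h (adjusted p = 0.0830). The higher level at 48 h did not pass against 24 h (0.32 ± 0.14, adjusted p = 0.236), nor did the lower level at 96 h against 48 h (-0.49 ± 0.14, adjusted p = 0.109), though this call was made in DESeq2 (adjusted p = 0.0396).

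ANXA4 encodes annexin A4, which is abundant in secretory epithelia and self-assembles on membranes. Its level was 677 and 735 CPM before TGFβ, 631 and 726 after 0.5 h, 463 and 493 after 12 h, 350 and 299 after 24 h, 317 and 289 after 48 h, and 436 and 373 after 96 h. Every library from 12 h on was below every library of 0 h and 0.5 h, the lowest being those of 24 h and 48 h, and the libraries of 96 h lay above those of 24 h and 48 h. Against 0 h, ANXA4 fell by 54.0% at 24 h (log2 change -1.12 ± 0.15, edgeR adjusted p = 6.31e-06). It fell by 57.0% at 48 h (-1.22 ± 0.15, adjusted p = 1.34e-06) and fell by 42.8% at 96 h (-0.81 ± 0.15, adjusted p = 0.000279). Without both shallow libraries ANXA4 passed at 24 h (-0.99 ± 0.19, adjusted p = 0.000308) and at 48 h (-1.16 ± 0.19, adjusted p = 3.12e-05). The smaller change at 12 h passed against 0 h (-0.56 ± 0.15, adjusted p = 0.0101) and against 0.5 h (-0.51 ± 0.15, adjusted p = 0.0236). The call at 12 h against 0 h was lost without replicate 2 at 0 h, replicate 1 at 12 h or replicate 2 at 12 h (adjusted p = 0.0788, 0.103 and 0.0564), and that against 0.5 h without replicate 2 at 0.5 h or either 12 h library (adjusted p = 0.204, 0.184 and 0.10). The further step from 12 h to 24 h (-0.56 ± 0.15, adjusted p = 0.459) and the higher level at 96 h than at 48 h (0.41 ± 0.15, adjusted p = 0.255) did not pass.

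ANXA3, which encodes annexin A3, had 66.8 and 77.9 CPM before TGFβ, 82.0 and 77.0 after 0.5 h, 67.8 and 87.7 after 12 h, 87.2 and 90.4 after 24 h, 27.1 and 44.4 after 48 h, and 37.3 and 30.6 after 96 h. The 8 libraries up to 24 h all lay above the 4 libraries of 48 h and 96 h. From 24 h to 48 h ANXA3 fell by 60.6% (log2 change -1.35 ± 0.21, edgeR adjusted p = 0.000203). This was the steepest step of any member between neighboring times. Against 0 h it fell by 51.7% at 48 h (-1.05 ± 0.21, adjusted p = 0.000701) and fell by 53.2% at 96 h (-1.10 ± 0.23, adjusted p = 0.000846). Without both shallow libraries the changes were -1.72 ± 0.27 from 24 h to 48 h (adjusted p = 0.000141) and -1.42 ± 0.25 at 48 h against 0 h (adjusted p = 7.04e-05). The call at 48 h against 24 h was lost with the stricter limits on cells (-1.17 ± 0.45, adjusted p = 0.239).

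ANXA6, which encodes the double-core annexin A6, found on the plasma membrane and on endosomes, was the one member that rose. Its level was 25.2 and 22.6 CPM before TGFβ, 26.1 and 23.1 after 0.5 h, 31.8 and 34.4 after 12 h, 27.8 and 28.5 after 24 h, 48.5 and 47.5 after 48 h, and 54.5 and 52.6 after 96 h. The 4 libraries of 48 h and 96 h lay above all 8 earlier ones, and those of 12 h and 24 h above those of 0 h. The level was 2.01-fold that of 0 h at 48 h (log2 change 1.0 ± 0.19, edgeR adjusted p = 0.000370) and 2.24-fold at 96 h (1.16 ± 0.20, adjusted p = 0.000104). At 12 h the change against 0 h was 0.47 ± 0.19 and did not pass (adjusted p = 0.103). The step from 24 h to 48 h passed (0.77 ± 0.19, adjusted p = 0.0145) but not without any 1 of the 4 libraries of these times (adjusted p = 0.0658 to 0.144), nor without both shallow libraries (adjusted p = 0.176), where 48 h against 0 h passed (1.02 ± 0.24, adjusted p = 0.00244). With the stricter limits on cells, neither 48 h nor 96 h passed against 0 h (adjusted p = 0.261 and 0.147), at changes of 1.08 ± 0.55 and 1.18 ± 0.53.

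ANXA2 ranged from 4714 to 6155 CPM over the 12 libraries and had 13237 to 43308 UMIs per time point. Its libraries were 6155 and 5136 CPM at 0 h and 4714 and 4778 at 96 h. Both 96 h libraries were below both 0 h libraries, but the difference of -0.25 ± 0.16 on the log2 scale did not pass (edgeR adjusted p = 0.300). ANXA5, whose product is used as a probe for phosphatidylserine on dying cells, ranged from 384 to 571 CPM, and its change at 96 h was -0.20 ± 0.16 (adjusted p = 0.397). ANXA7, which encodes a member with a long amino-terminal tail, ranged from 113 to 143 CPM, with a change of -0.03 ± 0.16 at 96 h (adjusted p = 0.922).

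ANXA11 encodes the member that tethers RNA granules to lysosomes. Its level was 266 and 220 CPM before TGFβ, 254 and 260 after 0.5 h, 322 and 265 after 12 h, 264 and 159 after 24 h, 260 and 126 after 48 h, and 240 and 238 after 96 h. Replicate 2 was below all other libraries at 24 h and 48 h, and these are the libraries with the lowest median depth per cell. The part of depth in this difference was not tested. The change at 48 h against 0 h was -0.32 ± 0.31 (edgeR adjusted p = 0.548), -0.95 ± 0.24 without replicate 1 at 48 h (adjusted p = 0.00762) and 0.09 ± 0.22 without replicate 2 (adjusted p = 0.866). At 24 h it was -0.19 ± 0.30 (adjusted p = 0.772) with both libraries, -0.62 ± 0.30 (adjusted p = 0.270) without replicate 1 at 24 h and 0.15 ± 0.29 (adjusted p = 0.857) without replicate 2. With both shallow libraries left out, the change was 0.15 ± 0.18 at 24 h and 0.09 ± 0.18 at 48 h.

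ANXA10, a member known from stomach epithelium, had 4, 4, 2, 3, 7 and 3 UMIs in the order of the time points. The ratio of its summed levels at 96 h and 0 h was 1.91, with an exact 95% interval of 0.280 to 11.3 that covers counting error only. A change was not detectable at this depth.

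Single cells were compared at equal depth. Each kept cell was thinned to 11000 protein-coding UMIs, the depth reached by 1694 cells, which left out 1.5% to 31.5% of the cells of a library, most in replicate 2 at 48 h and at 24 h. ANXA2 was found in 100% of these cells in each library, ANXA1 in at least 98.4%, and ANXA5 in 98.2% to 99.4% on average per time point. A further 2187 wells had under 1000 detected genes, at a median of 496 to 1312 UMIs. They too were given a sorted cell, and the part of its own mRNA in their UMIs was not tested. In these wells the shares per library were 75.2% to 100% for ANXA2 and 20.6% to 84.4% for ANXA1. They were 25.4% to 67.6% for ANXA5 and 15.1% to 64.1% for ANXA4. A share near 100% therefore says little of these abundant genes, and the UMIs per cell are given. The mean of ANXA1 was 16.8 ± 0.175 UMIs per cell (SD, n = 2 libraries) at 0 h, 10.3 ± 0.606 at 12 h and 9.10 ± 0.0772 at 96 h. The mean of ANXA4 was 7.81 ± 0.756 at 0 h, 3.28 ± 0.377 at 48 h and 4.44 ± 0.649 at 96 h, with at least 1 UMI in 98.8%, 91.8% and 96.5% of cells.

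ANXA3 and ANXA6 were not seen in every cell, and their shares moved in opposite directions, as their levels did. At means under 1 UMI per cell most of such a share follows from the mean, and a cell with 0 UMIs may still hold the mRNA. Cells with an ANXA3 UMI made up 50.2% ± 3.80 (SD, n = 2) before TGFβ, 52.8% ± 0.452 after 0.5 h, 52.1% ± 3.71 after 12 h, 54.0% ± 4.96 after 24 h, 26.2% ± 3.11 after 48 h and 28.4% ± 4.23 after 96 h. Both libraries of 48 h and both of 96 h were below all earlier ones. Cells with an ANXA6 UMI made up 21.1% ± 4.74, 21.0% ± 2.35, 31.1% ± 0.248, 25.4% ± 0.913, 36.3% ± 1.35 and 46.7% ± 3.24 in the same order. The libraries of 48 h and 96 h were above all earlier ones. Counting noise alone at the mean of each library would give 54.7% at 0 h and 31.2% at 48 h for ANXA3, and 22.5% and 36.5% for ANXA6. The shares thus largely restate the levels. Without thinning, the shares were 66.1% ± 4.92 at 0 h and 41.1% ± 7.32 at 96 h for ANXA3, and 36.5% ± 3.88 and 66.0% ± 1.68 for ANXA6. Among cells with a UMI, the mean was 1.59 ± 0.207 ANXA3 UMIs at 0 h and 1.47 ± 0.133 at 96 h, and 1.21 ± 0.00352 and 1.38 ± 0.0232 ANXA6 UMIs. From 24 h to 48 h the share of ANXA3 fell by 27.8 percentage points and that of ANXA6 was 10.9 points higher. In replicate 1 alone, which leaves out both shallow libraries, the shares at 24 h and 48 h were 50.5% and 24.0% for ANXA3 and 24.7% and 37.2% for ANXA6. With the stricter limits on cells the ANXA6 difference was -1.06 ± 11.7 points. With 2 libraries against 2, no permutation test of these shares could reach 0.05, and none was made. In the wells with under 1000 detected genes, 0.643% to 12.8% per library held an ANXA3 UMI and 0% to 6.21% an ANXA6 UMI.

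**Figure D3:**
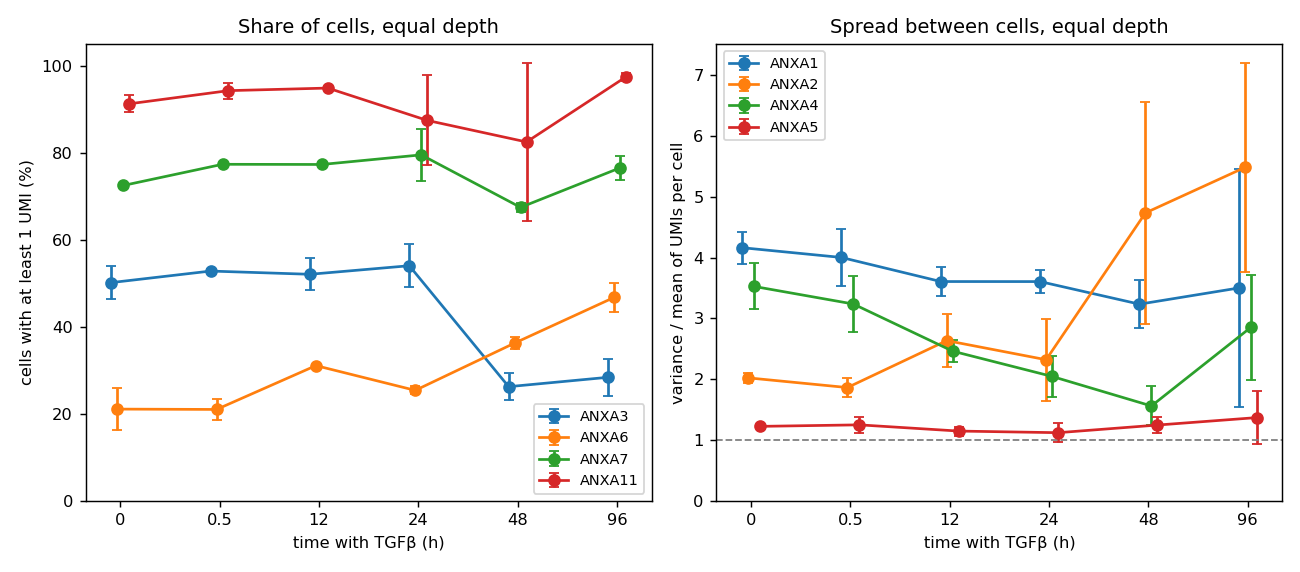
Left, share of kept cells thinned to 11000 UMIs with at least 1 UMI (vertical axis, percent) for ANXA3, ANXA6, ANXA7 and ANXA11 by time with TGFβ in hours. Right, variance over mean of UMIs per thinned cell for ANXA1, ANXA2, ANXA4 and ANXA5, with a dashed line at 1, the value of counting noise alone. Points are means of 2 libraries and bars the SD. ANXA3 drops to 26.2% at 48 h while ANXA6 reaches 46.7% at 96 h, and ANXA5 stays near the dashed line with ANXA1 above it at every time.

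The spread between cells differed between ANXA4 and ANXA5, which are near each other in level. Variance over mean of the thinned counts is near 1 for counting noise alone and grows with the mean at a given relative spread, so members of unlike level are not compared by it. It was 3.52 ± 0.377 for ANXA4 and 1.22 ± 0.0247 for ANXA5 at 0 h, at means of 7.81 and 5.32 UMIs per cell. At 96 h it was 2.85 ± 0.865 and 1.37 ± 0.441 at means of 4.44 and 4.96, and ANXA4 exceeded ANXA5 in 12 of 12 libraries. The ratio of ANXA4 was 1.56 ± 0.321 at 48 h. That of ANXA1 was 4.16 ± 0.262 at 0 h. The ratio of ANXA2 was 2.02 ± 0.0858 at 0 h and 5.48 ± 1.72 at 96 h, where the libraries held 51 and 63 cells at this depth. Across cells of a library, the counts of any 2 annexins were at most weakly related, and the highest median over libraries was r = 0.165, between ANXA1 and ANXA4 (lowest -0.121, highest 0.344).

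Over the 12 libraries, Pearson's r on the log2(CPM + 1) scale was computed with 2909 other genes of at least 50 CPM, as a description. The libraries share the 6 time points, so many genes that change late resemble each other. ANXA3 was most like KRT18 (r = 0.957), an epithelial keratin, TMOD3 (0.936), which caps actin filaments, and AKR1C1 (0.934), an aldo-keto reductase. ANXA4 was most like SERPINB1 (0.959), ALDH3B1 (0.944) and CA12 (0.938), and ANXA1 most like CIAO2A (0.940), MRPL32 (0.939) and COX17 (0.938). ANXA6 was most like NPTXR (0.976), SCD (0.974), a fatty acid desaturase, and RAB3B (0.970), a GTPase of secretory vesicles.

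Genes that work with annexins and the 5 other annexin genes were taken from lists written with the design. Earlier results of these data were known then, and the part of that choice in the counts below was not tested. Of 45 listed genes, 44 were in the table and 39 were tested, and at 96 h against 0 h 13 rose (12.5% of all genes tested rose), 5 fell (11.1% of all genes fell) and 21 did not pass. The other annexin genes gave 2 of those that rose and 1 of those that fell. At 12 h against 0 h 6 rose and 4 fell, where 8.46% and 5.83% of all genes did. At 24 h 6 rose and 5 fell (7.62% and 5.56% of all genes), and at 48 h 8 rose and 8 fell (10% and 8.48%). The median log2 change of the tested listed genes at 96 h was 0.19, against 0.02 for all genes tested.

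Of the S100 proteins that bind annexins, 2 of 4 rose and 2 fell at 96 h. S100A10, the light chain of ANXA2, had 1860 and 1857 CPM at 0 h and 2477 and 2827 at 96 h. Both 96 h libraries were above both 0 h libraries (log2 change 0.51 ± 0.14, edgeR adjusted p = 0.0114), though the call was lost without replicate 1 or 2 at 0 h or replicate 2 at 96 h (adjusted p = 0.0634, 0.0661 and 0.167). The S100A10 UMIs per ANXA2 UMI were 0.332 ± 0.0419 (SD, n = 2) at 0 h and 0.559 ± 0.0469 at 96 h. S100A11, a partner of ANXA1, had 2564 and 1660 CPM at 0 h and 3415 and 3122 at 96 h. The libraries of 0 h differed more from each other than those of 96 h, and the change of 0.63 ± 0.22 (adjusted p = 0.0464) was lost without replicate 2 at 0 h (0.32 ± 0.24, adjusted p = 0.397), without either 96 h library (adjusted p = 0.212 and 0.130) or without either 0.5 h library (adjusted p = 0.0699 and 0.0699). The S100A11 UMIs per ANXA1 UMI were 1.39 ± 0.353 at 0 h and 3.74 ± 0.176 at 96 h, and neither ratio was tested. S100A6, which binds ANXA2 and ANXA11 among others, fell by 1.12 ± 0.16 on the log2 scale (adjusted p = 6.82e-06), and S100A4, a calcium-binding protein often used as a mesenchymal marker, fell by 2.05 ± 0.21 (adjusted p = 1.24e-07).

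The receptors of ANXA1, FPR1 and FPR2, gave 0 UMIs in the libraries of 0 h and 96 h. PLA2G4A, the cytosolic phospholipase A2 that annexins inhibit in vitro, had 31.5 and 37.1 CPM at 0 h and 18.7 and 8.65 at 96 h, a log2 change of -1.35 ± 0.31 (edgeR adjusted p = 0.00214). Without replicate 2 at 96 h this call was lost (-0.89 ± 0.35, adjusted p = 0.108). None of the 3 tested penta-EF-hand partners passed (PDCD6, PEF1 and SRI, with changes of -0.60 ± 0.56, -0.58 ± 0.22 and 0.28 ± 0.15; median -0.58).

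Of the genes of plasminogen activation, to which the ANXA2 and S100A10 complex contributes, PLAUR and PLAU rose at 96 h. PLAUR, the urokinase receptor, had 39.98 and 34.5 CPM at 0 h and 141 and 157 at 96 h. Both 96 h libraries were above both 0 h libraries, and PLAUR rose by 2.0 ± 0.20 on the log2 scale (edgeR adjusted p = 5.14e-08). PLAU, urokinase itself, rose by 0.74 ± 0.17 (adjusted p = 0.00182), a call lost without replicate 2 at 96 h (adjusted p = 0.0834). For PLAT, tissue plasminogen activator, the change was 1.11 ± 0.67 and did not pass (adjusted p = 0.260), and PLG itself was too low to test.

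Of 9 tested membrane repair genes, 3 rose and 1 fell at 96 h. DYSF, dysferlin, had 0 UMIs at 0 h and 18 and 17 UMIs in the libraries of 96 h, at least 29.7-fold higher against a floor of 3 UMIs over the group, and with the counting error of both groups the exact 95% lower limit of the ratio was 22.9. MYOF, myoferlin, its close relative, had 212 and 186 CPM at 0 h and 66.1 and 101 at 96 h, a change of -1.24 ± 0.18 (edgeR adjusted p = 1.60e-05). The 2 ferlins thus changed in opposite directions, from very unequal levels. PDCD6IP (ALIX), an ESCRT adaptor, rose by 0.72 ± 0.15 (adjusted p = 0.000634), a call lost with the stricter limits on cells (0.75 ± 0.27, adjusted p = 0.0503). CHMP4B, an ESCRT-III subunit, rose by 0.44 ± 0.16 (adjusted p = 0.0493), but this call was lost when any 1 of the 12 libraries was left out (adjusted p from 0.0588 to 0.286) and in DESeq2 (adjusted p = 0.112).

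Of 7 tested genes of phosphatidylserine exposure and binding, 2 rose at 96 h, MFGE8 (1.28 ± 0.43, edgeR adjusted p = 0.0385) and GAS6 (2.31 ± 0.60, adjusted p = 0.00625), both secreted bridging proteins that, like ANXA5, bind phosphatidylserine. Both calls were lost without replicate 1 at 0 h (adjusted p = 0.236 and 0.0855) or replicate 2 at 96 h (adjusted p = 0.386 and 0.135). The scramblases ANO6 and XKR8 and the flippase subunit TMEM30A did not pass, with changes of 0.39 ± 0.18, 0.14 ± 0.42 and -0.01 ± 0.19. Of 6 copines and extended synaptotagmins, which also bind membranes on calcium, 1 rose, CPNE2 (0.55 ± 0.20, adjusted p = 0.0483), a call lost without either library of 0 h, 0.5 h, 12 h or 96 h (adjusted p from 0.0577 to 0.256) and in DESeq2 (adjusted p = 0.110).

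**Figure D4:**
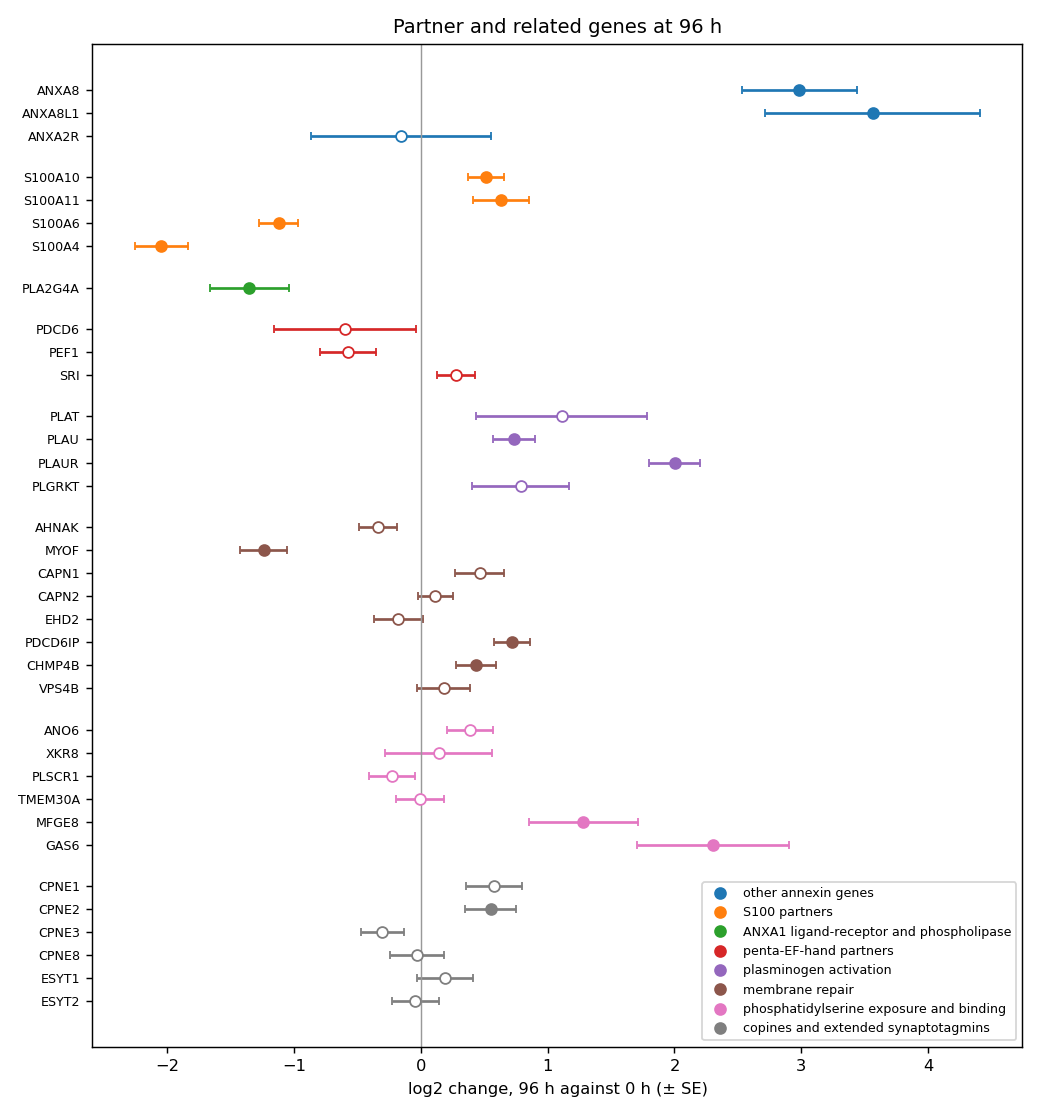
Log2 change at 96 h against 0 h (horizontal axis, bars SE from edgeR) for other annexin genes and genes of the partner lists, coloured by list. Filled points passed an adjusted p of 0.05 over all genes. ANXA13 and DYSF are left out because 1 group had 3 UMIs or fewer. ANXA8L1 lies farthest to the right (3.56) and S100A4 farthest to the left (-2.05), and the S100 partners stand on both sides of 0.

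The other annexin genes in the table were far lower than most members. ANXA13, known from intestine and kidney epithelium, had 33.1 and 29.8 CPM before TGFβ, 22.8 and 27.9 after 0.5 h, 6.88 and 9.72 after 12 h, 5.50 and 5.19 after 24 h, 1.0 and 0.52 after 48 h, and 1.56 and 0.67 after 96 h. Every library from 12 h on was below every library of 0 h and 0.5 h. Over both libraries it had 224 UMIs at 0 h and 3 at 96 h, 29.3-fold lower with an exact 95% counting interval of 9.89 to 143. ANXA8 had 1.64 and 3.47 CPM before TGFβ, 8.41 and 9.72 after 12 h, and 1.83 and 5.56 after 24 h. It had 4.35 and 4.13 after 48 h and 18.7 and 21.97 after 96 h. It was thus higher at 12 h and 96 h than between, though it did not pass at 24 h against 12 h. Its change at 96 h was 2.98 ± 0.45 (edgeR adjusted p = 2.12e-05), on 18 UMIs at 0 h and 57 at 96 h. ANXA8L1, a near-identical copy, had 4 and 20 UMIs (3.56 ± 0.85, adjusted p = 0.00315), a call lost without replicate 2 at 96 h (2.38 ± 1.25, adjusted p = 0.240), and how reads were divided between the copies is uncertain. ANXA9 had 8 and 4 UMIs at 0 h and 0 in both libraries of 96 h and was not tested.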

How the data were processed

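The data are CEL-Seq2 counts from 12 libraries of propidium iodide-negative A549 cells sorted singly. The table deposited by the authors holds unnormalized UMI counts of each gene in each well (largest 2845). The submitters' processing notes name GRCh38, UMI-tools, HISAT2 2.2.1, featureCounts 2.0.1 and Trim Galore 0.6.7, and the study's methods give other versions of some of these. Strand setting and annotation release were not given in the sources used here, and overlapping genes are therefore uncertain. Wells were kept by the limits the study states, counted over all genes, which left 1871 cells. The study gives a slightly larger number, and the same limits counted over protein-coding genes left 1917, of which 1863 were in both sets. Doublets were not called because cells were sorted singly.

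For each library, the protein-coding counts of its kept cells (88.7% to 91.0% of UMIs) were added up and tested with edgeR 4.0.16 under R 4.3.3 (filterByExpr, TMM, robust quasi-likelihood F test, 6 residual degrees of freedom, common biological coefficient of variation 0.129). The threshold was a Benjamini-Hochberg adjusted p of 0.05. Of 9 comparisons, 5 were with 0 h and the other 4 with the time before. Alternatives were DESeq2 1.42.0 and its size factors, no filter, each library left out, stricter cell limits, thinned sums, equal cell weights (limma 3.58.1), all genes in the library size, a replicate block, cell limits over protein-coding genes, only the libraries compared, and a test against a 1.5-fold change. The edgeR script was tested on simulated data for 96 h against 0 h. It recovered 17.9% of 1.5-fold, 52.2% of 2-fold and 87.9% of 4-fold changes, so a gene that did not pass may still have changed. Cells were thinned in Python 3.11.15 with numpy 2.4.6. Intervals are exact at 95% and cover counting error only, and the floor is 3 UMIs.

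The members, lists and tests were chosen with earlier results of these data known. Named genes are all members, list genes that passed or had the lowest adjusted p at 96 h, and the 3 genes most like each member that passed at 96 h. The genes DYSF, ANXA13 and ANXA8L1 have few UMIs. No protein sequences were used here. The values of 2 listed genes, included in the counts over all listed genes, are not reported here.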

Additional observations from a re-analysis of the deposited data

Results flagged for a closer look

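A signal appeared in a row that no comparison above uses. ANXA2P2, a processed pseudogene of ANXA2, had 117 UMIs in 107 of 1871 kept cells, above the 3 UMIs that a count of 0 allows. It had 2 to 20 UMIs per library, 0.00851% to 0.183% of the ANXA2 UMIs of the same library and 0.0577% over all. Replicates 1 and 2 had 3 and 7 UMIs at 0 h and 17 and 17 at 48 h. The other pseudogene in the table, ANXA2P3, had 0 UMIs. Reads of ANXA2 and its copies can be split or dropped by an aligner, and the part of this in the counts was not tested.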

How the results depend on the processing

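Of 448 values of called annexins under the alternatives, 416 kept the call, 32 lost it and 0 changed sign. For each called member they include 22 values of the test over the time course, which has no direction and could not change sign. For a comparison of 2 times, most fits that left out 1 library left out one of another time. Of 1368 values not called, 104 changed sign. In a test against a 1.5-fold change, the members past the threshold against 0 h were 0 (12 h), 1 (24 h), 1 (48 h) and 2 (96 h), with 0 at 12 h against 0.5 h and 1 at 48 h against 24 h. Of 10465 genes tested, 543, 591, 850 and 1090 passed against 0 h at these times. At 12 h against 0.5 h 500 passed, and at 48 h against 24 h 124. With the stricter limits on cells, the members past it were 1 at 12 h against 0 h, 1 at 12 h against 0.5 h and 0 at 48 h against 24 h. There 6 to 58 cells were left per library, and 302, 252 and 63 of 4871 genes tested passed. ANXA6 also lost its calls at 48 h and 96 h against 0 h and over the time course (edgeR adjusted p = 0.261, 0.147 and 0.117). With sums thinned to the smallest library, 1 member passed at 12 h against 0 h and 1 at 12 h against 0.5 h. Of 9121 genes tested, 557 and 471 did. At 48 h against 24 h, 1 member passed when only these libraries were fitted, and 1 when both libraries of lowest depth were left out, an alternative chosen after seeing the data. Of 9599 genes tested, 289 passed when only the libraries of 48 h and 24 h were fitted. With the limits on cells counted over protein-coding genes, also chosen after seeing the data, the number of members past the threshold was the same in every comparison. At 96 h against 48 h, 1 member (ANXA1) passed in DESeq2, where 117 of 10465 genes did. Leaving out each library in turn gave, against 0 h, 1 to 2 members (12 h), 2 to 2 (24 h), 3 to 4 (48 h) and 4 to 4 (96 h), and further 0 to 2 at 12 h against 0.5 h, 1 to 2 at 48 h against 24 h, 0 to 0 at 96 h against 48 h, and 4 to 5 over the time course. ANXA11 was the added member, at 48 h and over the time course, without replicate 1 at 48 h, and over the time course also with no filter on low counts (adjusted p = 0.0377). Where a fit kept 1 library of a time, that library was assumed to vary like the others. Among the listed genes called at 96 h against 0 h, PDCD6IP, S100A10, S100A11, PLAU, CHMP4B and CPNE2 lost the call with the stricter limits (edgeR adjusted p from 0.0503 to 0.884). The cause of these differences was not tested.

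Libraries of the same replicate number deviated together, with a correlation over 0.1, in 6 of 15 pairs. They were the 6 that involve neither 0.5 h nor 96 h, with correlations from 0.145 to 0.292. Every correlation with 0.5 h was negative (-0.0952 to -0.0239), and those of 96 h with the remaining times were 0.0713 to 0.0958. Since not every pair exceeded 0.1, the main model took no pairing. Replicate number and barcode set coincide, and the part of either in these correlations was not tested. With the replicate number as a block, 1 member passed at 96 h against 48 h (ANXA1, -0.49 ± 0.13, edgeR adjusted p = 0.0350), where 237 of 10465 genes did. The number of members past the threshold was the same as without the block in every other comparison.

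The share of cells with an ANXA3 UMI differed between 48 h and 24 h by -27.8 points, by -18.6 points at 5500 UMIs and by -34.8 points with the stricter limits. For ANXA6 the difference was 10.9 points, 3.62 at 5500 UMIs, 18.1 without thinning and -1.06 with the stricter limits, a change of sign. At the smallest library, 1 UMI is just under 1 CPM, which limits ANXA10, DYSF and the other low genes.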
